A study of Rattus norvegicus with 9 samples.

Results

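The enzymes that build cholesterol were followed in the ipsilateral lumbar spinal cord of rats. The 8 enzymes described here were chosen by name (Hmgcs1, Idi1, Fdps, Fdft1, Sqle, Lss, Cyp51 and Msmo1), and each matched 1 of the 34890 loci in the expression table. RNA was sequenced from 9 samples of wild-type, male Sprague Dawley rats, in 3 groups of 3. The JA rats had a sham operation and received saline, the SNI rats had a spared nerve injury and received saline, and the PLM rats had the same injury and received paeoniflorin with liquiritin. All rats were dosed by gastric infusion. The PLM labels give paeoniflorin at 20.65 mg/ml in all 3 samples, and liquiritin at 3.98, 3.99 and 3.100 mg/ml in replicates 1, 2 and 3, whereas the methods describe a single dose for the whole PLM group, and the replicates were treated as 1 dose. In spared nerve injury 2 branches of the sciatic nerve are tied and cut while the sural branch is left intact. The sequenced groups hold no uninjured rats that received the drugs, so the drugs were compared only on the background of the injury. The labels call the replicates biological without describing the animals further, and p-values measure the spread between these samples.

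Cholesterol is built from acetyl-CoA in a long chain of reactions. The early steps make mevalonate and then isoprenoid diphosphates, the middle steps join these into squalene and close its rings to lanosterol, and the late steps trim lanosterol to cholesterol. Transcription of most of these enzymes is driven by the factor SREBP2, which a cell releases when its membranes hold little sterol. In the spinal cord cholesterol is a main component of myelin, and because it does not pass from the blood it is made locally, by oligodendrocytes, astrocytes and neurons.

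Values are TPM (length-scaled transcript abundance), which adds up to the same total in each sample, so that a rise of one abundant transcript lowers the values of the others. Read depth cannot be read from TPM, and no counting error was given. Differences were tested by limma on log2(TPM + 1) over every locus averaging 1 TPM or more, and an enzyme was said to rise or fall where its p-value, adjusted by Benjamini-Hochberg over those loci, was under 0.05. All 8 enzymes passed this filter in each comparison. Each comparison was made on the values as deposited and on median-centred values, in which the median of all tested loci was set equal between samples. The libraries held the markers of spinal cord white matter, with 12 of 12 oligodendrocyte markers detected and a summed oligodendrocyte marker level between 47233.8 and 57454.8 TPM per sample. The transcripts of the 13 mitochondrial protein genes took 24.6% ± 1.303 of the TPM in the SNI group, 29.1% ± 3.75 in the JA group and 32.0% ± 0.768 in the PLM group (SD, n = 3 each).

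All 8 enzymes were well expressed. Of the 15503 loci that averaged 1 TPM or more in the 9 samples, 97.5% lay below Hmgcs1 and 77.0% below Idi1, the highest and the lowest of the 8. Hmgcs1, which makes HMG-CoA, ranged from 224.32 to 373.15 TPM with a median of 311.46. Fdps, which makes farnesyl diphosphate, ranged from 255.46 to 340.11 TPM with a median of 303.90, and the ranges of these top members overlapped. Cyp51, the lanosterol demethylase, and Msmo1, a sterol methyl oxidase of the late pathway, followed with medians of 188.27 and 163.87 TPM and overlapping ranges (136.66 to 221.42 and 129.72 to 185.73). Sqle, the squalene epoxidase, and Fdft1, the squalene synthase, formed the next pair, with medians of 90.08 and 81.53 TPM, and their ranges of 73.51 to 98.86 and 68.25 to 90.04 overlapped as well. Lss, which closes squalene epoxide to lanosterol, had a median of 34.20 TPM and Idi1, the isopentenyl diphosphate isomerase, 28.08 TPM. Lss was the most variable, between 21.63 and 69.26 TPM, and its range contained that of Idi1 (24.75 to 35.22). The range of Lss also reached that of Fdft1, and the order of the levels was not the order of the reactions.

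The sequences just upstream of the start sites differed between the enzymes and are shown for 4 of them, 2 with more than 1 CCAAT box, 1 with 1 and 1 with none. They are the 250 bases before each RefSeq start site (assembly GRCr8), read 5′ to 3′ on the strand of the gene, and capitals mark CCAAT or its reverse complement ATTGG. The RefSeq promoter table held 6 of the 8 enzymes, all but Fdft1 and Sqle.
Hmgcs1, chr2:53382054-53382303, plus strand: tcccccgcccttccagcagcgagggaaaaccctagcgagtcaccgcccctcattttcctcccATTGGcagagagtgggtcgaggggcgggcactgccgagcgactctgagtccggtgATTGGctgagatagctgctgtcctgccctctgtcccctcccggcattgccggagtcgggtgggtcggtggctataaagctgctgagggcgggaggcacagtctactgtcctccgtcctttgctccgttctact
Msmo1, chr16:29746863-29747112, plus strand: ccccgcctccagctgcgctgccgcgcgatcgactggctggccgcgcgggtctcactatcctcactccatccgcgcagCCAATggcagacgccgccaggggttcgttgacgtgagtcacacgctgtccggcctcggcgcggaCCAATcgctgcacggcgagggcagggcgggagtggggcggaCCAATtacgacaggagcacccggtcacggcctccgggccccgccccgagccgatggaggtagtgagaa
Lss, chr20:12118231-12118480, minus strand: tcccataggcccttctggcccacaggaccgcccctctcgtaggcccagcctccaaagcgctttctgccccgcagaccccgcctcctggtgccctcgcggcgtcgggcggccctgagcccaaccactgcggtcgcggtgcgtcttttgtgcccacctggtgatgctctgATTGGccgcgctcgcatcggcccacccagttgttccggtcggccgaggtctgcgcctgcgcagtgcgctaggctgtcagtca
Cyp51, chr4:30991443-30991692, plus strand: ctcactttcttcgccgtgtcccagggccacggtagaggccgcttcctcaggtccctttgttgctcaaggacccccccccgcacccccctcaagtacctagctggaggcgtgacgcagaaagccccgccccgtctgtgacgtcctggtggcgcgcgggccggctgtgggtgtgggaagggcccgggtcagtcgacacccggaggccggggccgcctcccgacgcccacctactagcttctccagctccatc
On either strand CCAAT was found in 5 of the 6 promoters, all but that of Cyp51, and in 34% of the 33469 promoters of the table over the same 250 bases. At least 2 copies were found in 4 of the 6 (Hmgcs1, Idi1, Fdps and Msmo1), and in 9.42% of all promoters. Msmo1 carried 3 copies on the plus strand, whose first letters lay 173, 109 and 68 bases before the start site. GGGCGG, the GC box, was present in 5 of the 6 (not in Idi1) and in 30.5% of all promoters, on either strand. TCACNCCAC, the core letters of a sterol regulatory element, was in 0 of the 6 and in 0.974% of all promoters, again on either strand. A match describes letters only, and the absence of these letters from this window says nothing about binding.

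The first comparison asked whether the enzymes differed between injured rats with and without the drugs. The summed TPM of the 8 enzymes was 1006.97 ± 60.0 in PLM and 1264.08 ± 64.9 in SNI (SD, n = 3 each). As deposited, Msmo1, Fdps and Fdft1 fell in PLM and no enzyme rose. Over all 15474 loci tested, 13.6% were called lower in PLM and 0.246% higher, and among the 3571 loci with a mean at least that of the lowest member 19.4% were called lower. Most loci had lower levels in PLM. Of all loci 85% had a log2 fold change below 0, and the median of all loci was -0.21 against -0.27 for the 8 enzymes. On median-centred values 0 of the 8 enzymes were called, with 0.685% of all loci called lower and 0.129% higher.

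**Figure D1:**
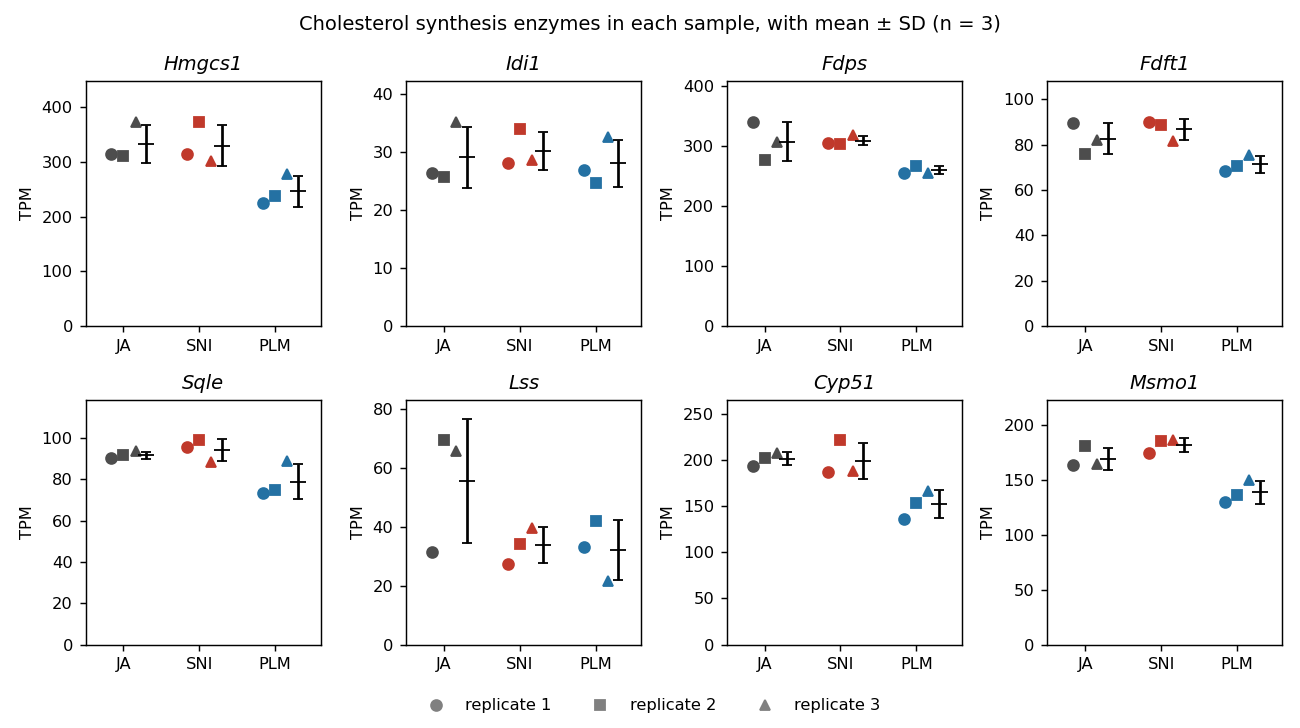
TPM of each of the 8 enzymes (vertical axes, each from 0) in the 3 JA, 3 SNI and 3 PLM samples, with marker shapes for replicates 1 to 3 and the mean ± SD of each group. Msmo1, Fdps, Fdft1, Cyp51 and Hmgcs1 show no overlap between PLM and SNI in these deposited values, with PLM lower, while JA replicates 2 and 3 stand above the rest for Lss.

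At the entry to the pathway, Hmgcs1 was 315.26, 373.15 and 301.36 TPM in SNI and 224.32, 236.95 and 277.71 TPM in PLM. The highest PLM value lay below the lowest SNI value. The log2 fold change was -0.42 with a standard error of 0.11 (adjusted p = 0.0539), just outside the threshold. Median-centred, it was -0.17 ± 0.10 (SE, adjusted p = 0.449) and the groups overlapped.

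Of the isoprenoid steps Idi1 was not called and Fdps was, and the difference between them was not tested. Idi1, which interconverts the pair of isoprenoid building blocks, was 28.08, 33.95 and 28.67 TPM in SNI and 26.99, 24.75 and 32.61 TPM in PLM, and the groups overlapped. Its log2 fold change was -0.11 as deposited (95% interval -0.40 to 0.19, adjusted p = 0.546) and 0.14 median-centred (-0.14 to 0.43), so its sign depended on the scaling. Fdps was 305.14, 303.90 and 317.69 TPM in SNI and 255.46, 267.28 and 255.56 TPM in PLM, with the smallest spread of any of the 8 in the SNI and PLM samples relative to its level. It fell by 0.25 on the log2 scale as deposited (SE 0.05, adjusted p = 0.0305), with no overlap between the groups. Median-centred, the difference was -0.0036 (95% interval -0.16 to 0.15, adjusted p = 0.982), and the groups overlapped.

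In the squalene steps Fdft1 was called and Sqle and Lss were not. Fdft1, the first enzyme committed to sterols, was 90.04, 88.58 and 81.53 TPM in SNI and 68.25, 70.40 and 75.44 TPM in PLM. It fell by 0.28 on the log2 scale as deposited (SE 0.07, adjusted p = 0.0449), and the groups did not overlap. Median-centred, its difference was -0.03 (95% interval -0.16 to 0.10). Sqle, a second control point of the pathway, was 95.42, 98.86 and 88.62 TPM in SNI and 73.51, 74.60 and 88.64 TPM in PLM. PLM replicate 3 and SNI replicate 3 were at nearly the same level, and PLM replicates 1 and 2 lay below all SNI samples. Its log2 fold change of -0.26 (SE 0.09, adjusted p = 0.0946) became -0.01 median-centred (95% interval -0.19 to 0.17). Lss was 27.26, 34.20 and 39.45 TPM in SNI and 32.99, 41.75 and 21.63 TPM in PLM, so the lowest and the highest of these 6 values were both PLM samples. Its log2 fold change was -0.10 as deposited (95% interval -0.69 to 0.50) and 0.15 median-centred (-0.50 to 0.80), and its sign also turned to positive as deposited without PLM replicate 3 (0.15) or SNI replicate 3 (0.02).

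The late steps showed some of the larger differences of the 8. Cyp51, which removes a methyl group from lanosterol, was 186.66, 221.42 and 188.27 TPM in SNI and 136.66, 153.39 and 166.46 TPM in PLM, with no overlap. The log2 fold change was -0.38 (SE 0.10, adjusted p = 0.0523), and -0.14 median-centred (adjusted p = 0.498). Msmo1, which oxidises the remaining methyl groups, was 174.21, 184.78 and 185.73 TPM in SNI and 129.72, 136.00 and 149.84 TPM in PLM, again with no overlap. It had the smallest adjusted p of the 8 as deposited (log2 fold change -0.39, SE 0.07, adjusted p = 0.0249). Median-centred, Msmo1 had a difference of -0.14 (95% interval -0.30 to 0.01, adjusted p = 0.332), and the groups overlapped.

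For 5 of the 8 enzymes all PLM values lay below all SNI values as deposited, where 41.9% of all loci did, and 0 did so median-centred, where 9.73% of loci did. Unadjusted p-values under 0.05 were found for 6 of 8 as deposited, all lower (35.8% of all loci), and 0 of 8 median-centred (6.89%). Relative to the median of all loci, 6 of the 8 were lower in PLM, with Idi1 and Lss above it. In SNI versus JA 8 of 8 were below that median and in PLM versus JA 7 of 8. By definition as many loci lie below the median as above it. Centring shifts all loci of a comparison by the same amount, so these counts cannot differ between the scales. Over all settings tried, the adjusted p ranged from 0.0172 to 0.530 for Msmo1, from 0.0275 to 0.988 for Fdps, from 0.0372 to 0.895 for Fdft1, from 0.0377 to 0.597 for Cyp51, from 0.0387 to 0.599 for Hmgcs1 and from 0.0588 to 0.972 for Sqle. The calls were sensitive to single samples. The number of enzymes called was 0 without PLM replicate 1 or 2 or SNI replicate 1 or 3, 1 without PLM replicate 3 (Msmo1) and 2 without SNI replicate 2 (Msmo1 and Fdps), and loci called lower over the whole table dropped from 2110 to between 264 and 1456. A test with 3 against 3 has 20 splits and cannot give a two-sided exact permutation p below 0.1.

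**Figure D2:**
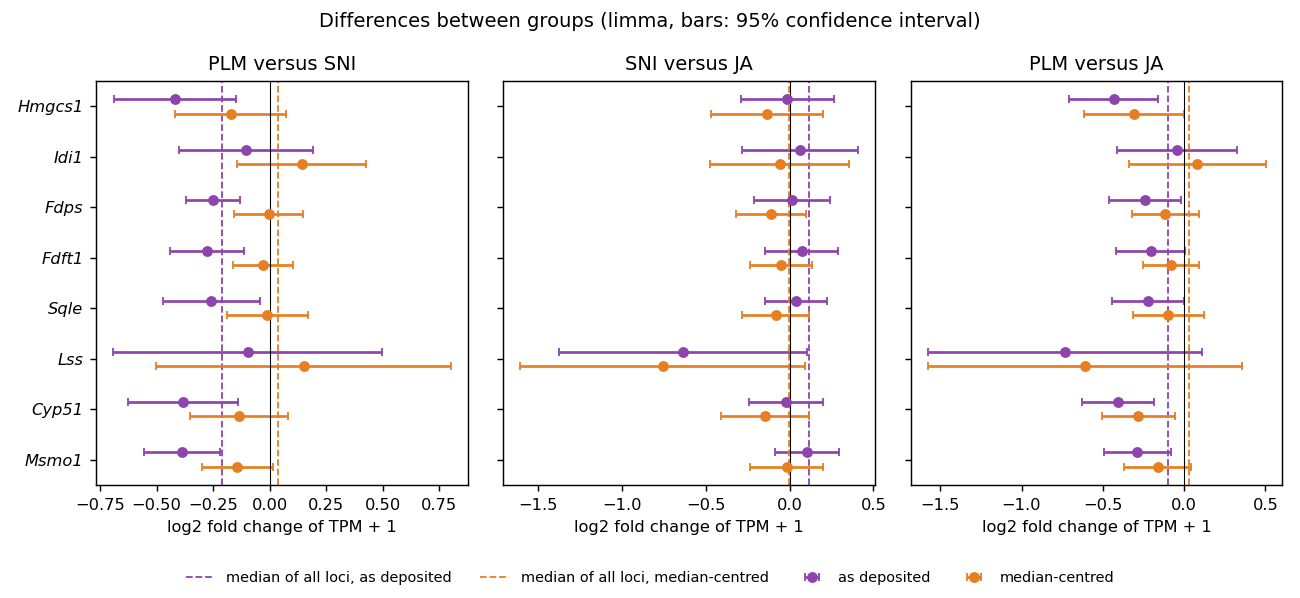
Log2 fold change of TPM + 1 for the 8 enzymes (rows) in PLM versus SNI, SNI versus JA and PLM versus JA (panels), as deposited and median-centred, with 95% confidence intervals from limma and dashed lines at the median of all tested loci. In PLM versus SNI the 8 values lie between -0.42 and -0.10 as deposited and between -0.17 and 0.15 median-centred, where Idi1 and Lss are above 0.

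The second comparison asked what the injury alone did. No locus of 15557 was called in SNI versus JA (0% lower and 0% higher, limma), and unadjusted p-values under 0.05 were found for 154 lower and 950 higher loci as deposited (0.99% and 6.11%) and for 487 and 264 median-centred (3.13% and 1.7%). None of the 8 enzymes had an unadjusted p-value under 0.05, and the groups overlapped for each of them. Over all loci, every SNI sample lay below every JA sample for 1.66% as deposited and above for 12.1% (6.87% and 4% median-centred). The summed level of the 8 was 1269.45 ± 50.2 TPM in JA (SD, n = 3), within the spread of SNI. Their median log2 fold change was 0.03 as deposited beside 0.12 for all loci, and -0.10 median-centred beside -0.01. All 8 enzymes were below the median of all loci, a position that centring leaves unchanged. Hmgcs1 was 314.31, 311.46 and 372.73 TPM in JA, and its log2 difference was -0.01 (95% interval -0.29 to 0.27) as deposited and -0.14 (-0.47 to 0.20) median-centred. Fdps was 340.11, 275.88 and 305.88 TPM in JA, with a log2 difference of 0.01 (-0.21 to 0.24) as deposited and -0.11 (-0.32 to 0.10) median-centred, so its sign depended on the scaling. Cyp51 was 193.89, 202.74 and 207.71 TPM in JA and Msmo1 162.90, 180.40 and 163.87 TPM. The JA values of both lay among or next to those of SNI. Their log2 differences were -0.02 (-0.24 to 0.20) for Cyp51 and 0.10 (-0.09 to 0.29) for Msmo1 as deposited. Median-centred, these were -0.14 (-0.41 to 0.12) for Cyp51 and -0.02 (-0.24 to 0.20) for Msmo1. Fdft1 was 89.51, 76.03 and 82.20 TPM in JA, Sqle 90.08, 91.65 and 93.50 TPM, and Idi1 26.33, 25.78 and 35.22 TPM. These 3 had log2 differences from 0.04 to 0.07 as deposited and from -0.08 to -0.05 median-centred.

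Lss was the exception in the JA group. Its level was 31.26 TPM in JA replicate 1 and 69.26 and 65.66 TPM in replicates 2 and 3, while the other 7 samples of the study lay between 21.63 and 41.75 TPM. The lower of the 2 high samples was 1.57 times the highest of the other 7. Such a split, with JA replicates 2 and 3 above all other samples, was found for 254 of 15503 loci (1.64%), and 4 loci, Lss included, had a gap at least this wide. None of the other 7 enzymes had it. The log2 difference of SNI from JA was -0.64 for Lss, with a 95% interval from -1.38 to 0.10 (adjusted p = 0.614), and it was -0.998 to -0.44 with each sample left out in turn. This gap came from a description of the values after they were seen, and no test was made of it.

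The third comparison set the treated injured rats against the sham-operated rats. It shares the PLM samples with the first comparison and the JA samples with the second, so the values are given beside those above and not as further evidence. None of the 8 enzymes was called (0.013% of 15349 loci were called lower and 0.00652% higher). Unadjusted p-values under 0.05 were found for 4 of 8 as deposited, all lower (10.5% of loci), and 6 of 8 had every PLM sample below every JA sample, where 15.7% of loci did. Cyp51 had a log2 fold change of -0.41 (SE 0.09, adjusted p = 0.323), Hmgcs1 -0.43 (SE 0.11, adjusted p = 0.342), Msmo1 -0.29 (SE 0.09, adjusted p = 0.356) and Fdps -0.24 (SE 0.09, adjusted p = 0.412). Fdft1 and Sqle were the other members without overlap, at -0.21 and -0.22. Msmo1, Fdps, Fdft1 and Sqle were at -0.16, -0.11, -0.082 and -0.096 median-centred, and their groups overlapped. Median-centred, Cyp51 (-0.28, SE 0.09, adjusted p = 0.494) and Hmgcs1 (-0.31, SE 0.13, adjusted p = 0.499) still had all PLM samples below all JA samples, which 6.93% of loci did. These 2 were also the enzymes with an unadjusted p under 0.05 median-centred, where 4.72% of loci were lower at that p, and 0 of the 8 were called (0.013% of loci lower and 0% higher). The median of the 8 was -0.26 as deposited beside -0.10 for all loci, and -0.14 beside 0.03 median-centred. Idi1 turned from -0.04 to 0.08 between the scalings.

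The rest of the pathway was examined through lists of genes. Of 12 other cholesterol synthesis enzymes tested, 7 fell in PLM versus SNI as deposited and 0 rose, and 0 were called median-centred, where 13.6% of all loci (19.4% of those at least as abundant as the lowest of the 8) were called lower as deposited and 0.685% median-centred. Acat2, which makes the acetoacetyl-CoA used by Hmgcs1, fell from 101.6 ± 8.06 to 67.9 ± 5.25 TPM (log2 fold change -0.57, adjusted p = 0.0172; median-centred -0.33, adjusted p = 0.107). Sc5d, Mvd, Dhcr7 and Nsdhl also fell, with log2 fold changes between -0.39 and -0.35. Over the 20 cholesterol enzymes with the 8 included, the median was -0.35 as deposited and -0.10 median-centred. Below the median of all loci were 17 of 20, a count that centring cannot change. In SNI versus JA 0 of the 20 were called, and in PLM versus JA 0 of the 20. Below a log2 fold change of 0 were 20 of 20 as deposited and 19 of 20 median-centred in PLM versus JA (71.2% and 43.7% of all loci), and 5 of 20 as deposited and 18 of 20 median-centred in SNI versus JA (23.6% and 51.4% of all loci). The count of 7 became 0 to 4 with 1 sample left out (0 without SNI replicate 1, 1 without PLM replicate 1 or 2, 2 without SNI replicate 3, 3 without PLM replicate 3 and 4 without SNI replicate 2). Over the whole table, loci called lower were 286 of 15393, 305 of 15536, 264 of 15481, 587 of 15425, 685 of 15434 and 1456 of 15397, in that order.

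In the list of sterol regulation and uptake 5 of 15 genes fell and 0 rose, and 1 was called median-centred, beside the 13.6% and 0.685% of all loci called lower. Srebf2, which encodes SREBP2, fell from 38.6 ± 2.79 to 28.7 ± 2.58 TPM (log2 fold change -0.41, adjusted p = 0.0355; median-centred -0.16, adjusted p = 0.297). Insig1, which holds SREBP2 in the endoplasmic reticulum and is itself a target of it, fell from 80.7 ± 2.14 to 61.9 ± 4.84 TPM (log2 fold change -0.38, adjusted p = 0.0279; median-centred -0.13, adjusted p = 0.299). Lrp1, a receptor for apolipoprotein E, was the gene called on both scales, from 25.9 ± 2.64 to 13.9 ± 0.605 TPM (log2 fold change -0.85, adjusted p = 0.00686; median-centred -0.60, adjusted p = 0.0321). Insig2 and Lrp8 were the other 2 that fell as deposited.

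In the list of genes that export or convert sterols 7 of 14 fell and 0 rose as deposited, and 3 of these were called median-centred, beside the same 13.6% and 0.685% of all loci. Apoe, the main lipid carrier of the nervous system, fell from 3775 ± 97.5 to 1756 ± 223 TPM (log2 fold change -1.11, adjusted p = 0.00477; median-centred -0.86, adjusted p = 0.0494). Cyp7b1, an oxysterol hydroxylase, fell from 13.6 ± 0.851 to 4.55 ± 0.401 TPM (-1.40, adjusted p = 0.00396; median-centred -1.152, adjusted p = 0.0263). Lcat, which esterifies cholesterol on lipoproteins, fell from 21.3 ± 1.20 to 9.67 ± 0.331 TPM (-1.06, adjusted p = 0.00396; median-centred -0.82, adjusted p = 0.0263). Abcg1, Soat1, Nceh1 and Cyp27a1 were the others that fell as deposited. In the isoprenoid branches, which use farnesyl diphosphate for other products, 2 of 12 fell (Fntb and Icmt), with 0 median-centred, a share near the 13.6% of all loci. In fatty acid synthesis, which SREBP1 governs, 14 of 18 fell as deposited (13.6% of all loci) and 1 median-centred (0.685% of all loci; Fads2, from 25.9 ± 4.53 to 9.21 ± 0.352 TPM, median-centred log2 fold change -1.14, adjusted p = 0.0285). No gene of these lists was called in SNI versus JA or in PLM versus JA. Calls in regulation and uptake were 4 without PLM replicate 3, 3 without SNI replicate 2 and 1 without any of the other 4 samples. In export and conversion they were 5, 6 and 3 for the same cases, and in the isoprenoid branches 1, 1 and 0. In fatty acid synthesis they were 9 without PLM replicate 3, 8 without SNI replicate 2, 7 without SNI replicate 3, 3 without PLM replicate 1 and 2 without PLM replicate 2 or SNI replicate 1. Calls over the whole table dropped too, from 2110 lower loci to 685 without PLM replicate 3 and 1456 without SNI replicate 2. They were between 264 and 587 without any of the other 4 samples.

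**Figure D3:**
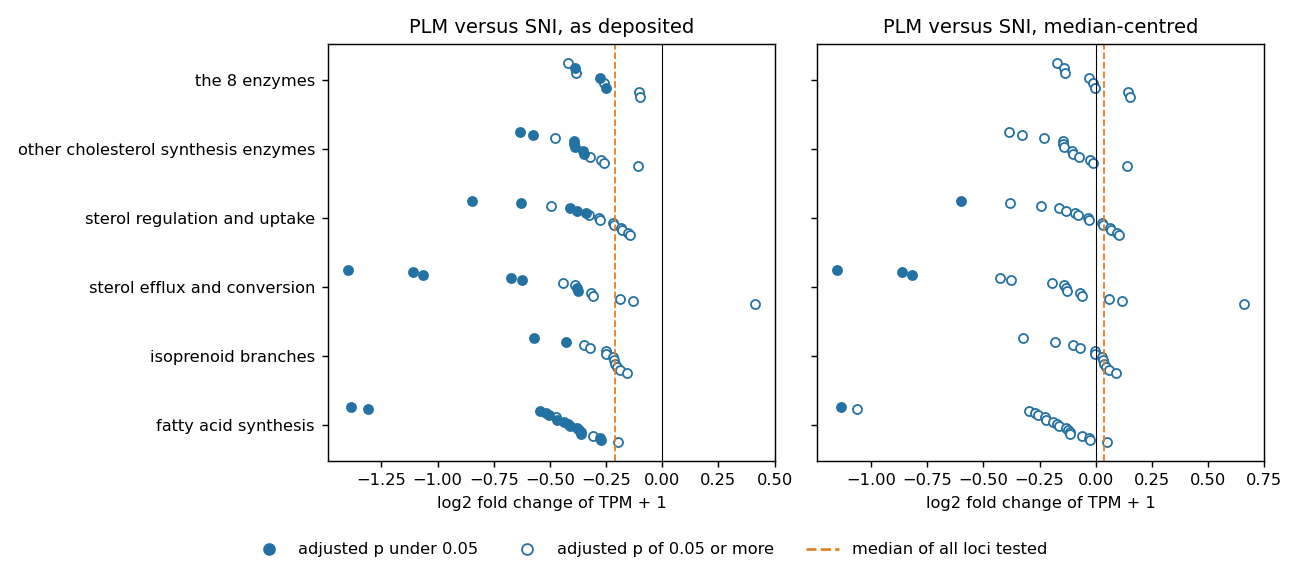
Log2 fold change of TPM + 1 in PLM versus SNI for each gene (point) of the 8 enzymes and the 5 other lists (rows), as deposited and median-centred, with filled points for an adjusted p under 0.05 and a dashed line at the median of all loci tested. As deposited the 8 enzymes lie around the line at -0.21, and median-centred the filled points are 1 gene of sterol regulation and uptake, 3 of sterol efflux and conversion and 1 of fatty acid synthesis.

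Of the marker lists of cell types, that of astrocytes had most of its genes called. The summed level of the 10 astrocyte markers ranged from 701.09 to 1407.29 TPM in JA, from 1115.56 to 1363.3 in SNI and from 461.12 to 540.78 in PLM, with none of the 10 at 0, and in PLM versus SNI 9 of 10 were called lower as deposited and 7 of 10 median-centred (13.6% and 0.685% of all loci). Gfap was 585.59, 617.16 and 560.70 TPM in SNI and 259.01, 248.19 and 216.45 TPM in PLM. Of the 12 oligodendrocyte markers 0 were called in PLM versus SNI, and their summed level ranged from 47233.8 to 49532.6 TPM in SNI and from 50975.6 to 51881.3 in PLM. In the same comparison as deposited 0 of 10 neuron, 0 of 8 Schwann cell, 0 of 5 endothelial and 0 of 7 oligodendrocyte precursor markers were called, with 1 of 8 for microglia and 1 of 4 for meninges and fibroblasts, both lower, where 13.6% of all loci were called lower. In SNI versus JA and PLM versus JA no marker of these lists was called, and the summed astrocyte level in JA spanned that in SNI. In whole tissue, fewer cells of a type and less RNA per cell cannot be told apart, and the part of the astrocyte markers in the differences of the 8 enzymes was not tested. With the mitochondrial protein genes left out and TPM rescaled, 0 of the 8 were called in PLM versus SNI (267 of 16055 loci lower). Their median log2 fold change moved from -0.27 to -0.12, and that of all loci from -0.21 to -0.084. The cause of the differing mitochondrial share was not tested. Schwann cell markers varied widely within groups. The 8 Schwann cell markers summed to between 130.67 and 7957.25 TPM in JA, between 588.72 and 4536.76 in SNI and between 281.29 and 3339.5 in PLM, with none of the 8 at 0.

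Within groups, 4 of the 8 enzymes were highest in the library with the most Schwann cell marker TPM, which was JA replicate 3, SNI replicate 2 and PLM replicate 3. These were Hmgcs1, Idi1, Sqle and Cyp51, and 5.62% of the 15503 loci had this pattern in all 3 groups. Median-centred the pattern held for these and Fdft1, 5 of 8, and for 6.86% of loci. For Hmgcs1 the level in that library was 1.19 times the mean of the other 2 in JA, 1.21 times in SNI and 1.20 times in PLM. For Idi1 these ratios were 1.35, 1.20 and 1.26. Sqle had 1.03, 1.07 and 1.20, and Cyp51 1.05, 1.18 and 1.148. Fdps stayed level, at 0.993, 0.976 and 0.978 times the mean of the others. The same 3 libraries also had the highest summed level of the matched markers of meninges and fibroblasts in their groups, at 303.59 TPM in JA, 198.95 in SNI and 112.35 in PLM, beside 101.03 to 113.97, 77.66 to 112.04 and 51.08 to 69.07 in the others. The pattern was noticed after the values were seen, and the part of Schwann cell, meningeal or fibroblast RNA in it was not tested. With SNI replicate 2 and PLM replicate 3 left out together, 0 of the 8 enzymes were called in PLM versus SNI, and 9 loci were called lower over the whole table with 2 samples left in each group. As deposited, the log2 differences of the 3 enzymes called with all samples were as large without these libraries, at -0.43 for Msmo1, -0.30 for Fdft1 and -0.25 for Fdps, and the median of the 8 was -0.31. The median of all loci was then -0.24, against -0.21 with all samples. Median-centred without these libraries, Msmo1 was -0.16, Fdft1 -0.025 and Fdps 0.025, and the median of the 8 was -0.028.

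**Figure D4:**
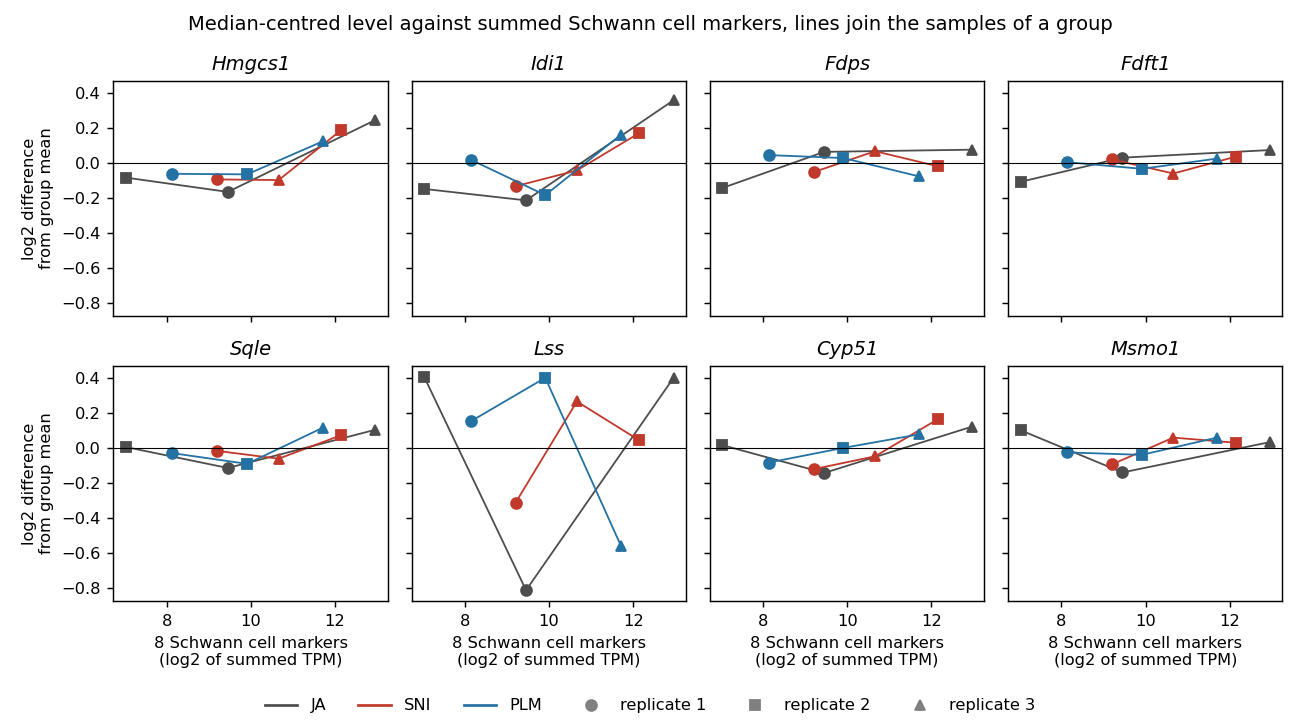
Median-centred level of each of the 8 enzymes, as the log2 difference from the mean of its group (vertical axis), against the summed level of the 8 Schwann cell markers (horizontal axis, log2 of TPM), with 1 line per group and marker shapes for replicates. Hmgcs1, Idi1, Fdft1, Sqle and Cyp51 are highest in the sample of each group with the most Schwann cell marker TPM, and Fdps, Lss and Msmo1 are not so in all 3 groups.

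The 8 enzymes did not vary as 1 unit over the 9 samples. Pearson's r of median-centred levels, given as a description over 9 samples that share library and cell composition, ranged from -0.01 (Fdft1 and Lss) to 0.94 (Hmgcs1 and Cyp51) over 28 pairs, with a median of 0.46. Median-centred, JA replicate 3 was the highest sample for 6 of 8 enzymes and PLM replicate 2 the lowest for 4 of 8, while in TPM as deposited each of these held for 1 of 8 (Idi1). As deposited, PLM replicate 1 was the lowest sample for 6 of 8 and SNI replicate 2 the highest for 3 of 8. The 5 genes whose median-centred profile was most like the mean of the 8 were Pcolce (r = 0.994), Mgll (0.964), Fndc1 (0.964), Col6a2 (0.963) and Cyb5a (0.959), all over 9 samples and without a test. They are the highest of 13945 candidates, and so large a search over 9 samples gives high values by selection. Pcolce, a collagen processing enhancer, ran from 5.25 TPM in PLM replicate 1 to 24.1 TPM in JA replicate 3. Col6a2, a collagen chain, ran from 7.08 to 20.99 TPM between the same samples. Mgll encodes the monoacylglycerol lipase, and Cyb5a the cytochrome b5 that donates electrons to sterol oxidases. Without JA replicate 3 and SNI replicate 2, the samples farthest from the median, r was 0.982 for Pcolce, 0.862 for Mgll, 0.925 for Fndc1, 0.922 for Col6a2 and 0.852 for Cyb5a. These genes were picked on all 9 samples, so the smaller set is no independent check.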

How the data were processed

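RNA from 9 samples of rat spinal cord was measured by RNA-seq (Illumina TruSeq libraries). Per the study's methods and processing notes, the authors called bases with CASAVA, trimmed reads with fastp (version 0.19.5), aligned them with HISAT2 and assembled expression values with StringTie. The notes name the human build GRCh38.p13 although the identifiers are rat Ensembl genes, so the mapping build remains unknown. A single table of TPM for 34890 loci was deposited by the authors, and every sample has the same total. TPM keeps no depth, so the precision set by read number is unknown. Samples were grouped by their labels and columns matched by sample description.

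Groups were compared in pairs with limma (version 3.58.1, R version 4.3.3, variance trend) on log2(TPM + 1), over loci averaging 1 TPM or more in the 6 samples fitted, with Benjamini-Hochberg adjustment over all loci. Fold changes on this scale understate changes of low genes. Adjusted p-values in the text are from this fit. The study's methods use DESeq2, which needs counts and was not run. On simulated data with a log2 change of -0.5, the fit called 19 of 50 changed genes in PLM versus SNI, 18 of 50 in SNI versus JA and 16 of 50 in PLM versus JA. The simulation changed only a small set of the more abundant loci and left all others unshifted. In the data most loci were lower in PLM than in SNI, so these shares are not the sensitivity of the real fits. The 8 enzymes and all lists were chosen with earlier results of these data known. Named genes were the 8 enzymes, Insig1, Srebf2, list genes with an adjusted p under 0.05 on either scale, and the 5 genes with the most similar profile. Some genes of the lists that this rule names are not reported here. Promoters came from a RefSeq table (GRCr8). Alternatives were median centring, quantile normalization, rescaling without mitochondrial genes, other filters and pseudocounts, a fit to all samples, a replicate block, the study's thresholds and leaving out samples. Leaving out the libraries with the most Schwann cell marker TPM was chosen after seeing the data. Replicates are called biological in the labels, and whether each was 1 animal is not stated there.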

Additional observations from a re-analysis of the deposited data

How the results depend on the processing

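The calls depended on the scaling and on single samples. In PLM versus SNI the number of enzymes called, 3 as deposited, was 0 with median centring, 0 with quantile normalization, 0 after leaving out and rescaling for mitochondrial protein genes, 1 in a fit to all 9 samples, 5 with at least 1 TPM in every sample (adding Hmgcs1 and Cyp51), 2 with no filter (Fdft1 at an adjusted p of 0.0575), 0 at the study's thresholds, and 0 as deposited or median-centred without the libraries with the most Schwann cell marker TPM. Over the whole table, loci called lower moved with it, from 2110 of 15474 to 2594 of 13906 with the filter on every sample, 1237 of 21973 with no filter, 463 of 15503 in the fit to all 9 samples, 267 of 16055 after rescaling for mitochondrial protein genes and 132 of 15474 with quantile normalization, and the study's thresholds gave 220 of 15474 (1.42%). With 1 sample left out the number of enzymes called was between 0 and 2. With the replicate number as a block it was 0, and 0 when also median-centred. Same-numbered samples correlated at -0.046 to 0.13 in their deviations from the group means, and differently numbered samples at -0.19 to 0.14. No pairing by number was seen, but with 3 samples per group these values cannot show that there was none. The block moved loci called lower from 2110 to 151. In SNI versus JA and PLM versus JA 0 enzymes were called in every setting.

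The median log2 fold change of the 8 enzymes in PLM versus SNI (-0.27) was -0.020 median-centred, with the block or without, -0.069 with quantile normalization, -0.12 without mitochondrial genes, and without the Schwann-high libraries -0.31 as deposited and -0.028 median-centred. In SNI versus JA (0.03) it was -0.096 median-centred, with the block or without, -0.096 with quantile normalization, -0.065 without mitochondrial genes and -0.066 median-centred without the Schwann-high libraries. In PLM versus JA (-0.26) it was -0.14 median-centred, with the block or without, and without the Schwann-high libraries -0.31 as deposited and -0.12 median-centred. With 1 sample left out these medians ran from -0.33 to -0.24, from -0.017 to 0.065 and from -0.32 to -0.23.

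Signs turned for single enzymes, and the cause was not tested. The values below are for median centring (with the block or without), quantile normalization, rescaling without mitochondrial genes, and median centring without the Schwann-high libraries, in that order. In PLM versus SNI they were 0.14, 0.12, 0.038 and 0.15 for Idi1, and 0.15, 0.13, 0.047 and 0.45 for Lss, which was also 0.17 as deposited without the Schwann-high libraries. Fdps was 0.025 in the last setting only. In SNI versus JA they were -0.11, -0.11, -0.078 and -0.063 for Fdps, -0.050, -0.051, -0.018 and -0.032 for Fdft1, and -0.084, -0.085, -0.052 and -0.069 for Sqle. Idi1 was -0.059, -0.058 and -0.026 in the first 3 settings, and Msmo1 -0.018, -0.017 and -0.017 in all but the rescaling. In PLM versus JA Idi1 was 0.081, 0.065, 0.012 and 0.18. With 1 sample left out, the log2 fold change crossed 0 for Lss in PLM versus SNI (-0.31 to 0.15), for Idi1 in PLM versus JA (-0.15 to 0.097), and in SNI versus JA for Hmgcs1 (-0.11 to 0.070), Idi1 (-0.022 to 0.20), Fdps (-0.062 to 0.088) and Cyp51 (-0.10 to 0.020). Read depth, unknown for TPM, limits what can be said of small differences.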
